A study of Homo sapiens with 5 samples.

Results

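This account covers 10 genes of the Wnt pathway in KGN, a cell line established from a human ovarian granulosa tumour: the ligand WNT5A, the agonist RSPO1, the secreted antagonists SFRP1, SFRP5, DKK1 and DKK3, the receptor FZD1, the signal carrier CTNNB1 (beta-catenin), the nuclear factor LEF1 and the feedback gene AXIN2. They were chosen by name, with earlier results of these data known, from 35453 gene names in the count table. The estimated counts of all their transcripts, 80 in all, were summed per gene. All 10 were found.

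RNA-seq was made from cells given FSH, forskolin (FSK), SC79 or PMA for 24 h, and from control cells. FSH, the follicle-stimulating hormone, was used at 100 ng/mL. FSK, which activates adenylyl cyclase and so raises cAMP, is labelled at 10 mmol/L. SC79, an activator of the kinase AKT, was used at 4 µg/mL. PMA, a phorbol ester that activates protein kinase C, is labelled at 0.1 mmol/L. For FSK and PMA the protocol text instead shows a symbol that stands for micro, so the unit is uncertain. Control cells are titled untreated, while the protocol adds ethanol to them. The medium of all 5 groups held androstenedione at 100 nmol/L and was charcoal-stripped; androstenedione is a precursor that aromatase turns into estrogen. Each group has 1 library, from RNA of 3 cultures grown in different weeks and pooled before sequencing, so the spread between cultures was not measured and no difference could be tested. Ratios therefore carry exact Clopper-Pearson 95% intervals for counting error only.

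Wnt proteins are secreted, lipid-modified ligands that bind Frizzled receptors. In the branch that runs through beta-catenin, Frizzled and LRP co-receptors stop the destruction of beta-catenin, which then joins factors of the TCF/LEF family on DNA. Target genes include AXIN2, a scaffold of the destruction complex and thus a brake on the pathway. SFRP proteins resemble the ligand-binding part of Frizzled and can bind Wnts, while DKK1 blocks the LRP co-receptors. In the ovary, RSPO1 and beta-catenin take part in female gonad development, and beta-catenin has been tied to the stimulation of aromatase by FSH in granulosa cells.

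Libraries held 50253128 to 58849719 estimated counts, and the 10 most abundant genes took 6.66 to 8.77% of them. Values below are scaled counts, which are gene sums divided by a library size corrected with edgeR's TMM factors. Of 8 granulosa markers, 5 had at least 100 scaled counts in every library (FOXL2, NR5A1, CYP19A1, AMH and HSD17B1). The list summed to 19591 with FSH, 45871 with FSK, 19823 with SC79, 14253 with PMA and 19072.5 in control cells. With PMA, FOXL2 had 5438 against 10022 in control cells, AMHR2 15.8 against 98.7 and FSHR 36.5 against 93.2. CYP19A1 went the other way, with 1684 against 906, as did HSD17B1 (770 against 694.5) and INHA (74.0 against 61.8). CYP19A1, the aromatase gene, had 27332 scaled counts with FSK and 906 in control cells. The endothelial list of 4 genes summed to 1232 scaled counts with PMA, 220 to 249 with the other treatments and 243 in control cells. Its gene CDH5 was at 2.01 or below in every library. PECAM1 had 646 with PMA against 109 in control cells, TIE1 347 against 35.05 and VWF 237 against 98.7. The immune list of 4 genes summed to 2218 with PMA, mostly from CD68 with 2170, against 845 in control cells, and CD3E was at 0 in all 5. The theca and stroma list of 6 genes ran from 115306 with PMA, through 147490 to 157013 with the other treatments, against 159550 in control cells. Within it CYP17A1 was at 13.5 or below. COL1A2, which made up most of the sum, had 82714 with PMA against 139312 in control cells, and LUM had 27.6 against 48.0. PDGFRA went the other way, with 32429 against 20089, as did DCN with 130 against 93.2. The epithelial list of 4 genes summed to 32434 with FSK, 39307 to 54211 with the other treatments and 51728 in control cells. Most of it came from KRT18, with 29743 with FSK and 47979 in control cells, and EPCAM was at 40.4 or below. The oocyte list stayed at 30.4 to 45.4, with BMP15 at 0. In pooled RNA, fewer cells of one kind and less RNA per cell cannot be told apart, and the part of these marker differences in the results with PMA or FSK was not tested.

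Set on a scale per transcript length, the 10 genes differed widely in level. This length-scaled level is the estimated count per base of transcript (GENCODE 29 lengths, which cover 97.6% of all counts), scaled to sum to 1000000 units in each library. DKK3 averaged 297 units over the 5 libraries and CTNNB1 276. DKK1 averaged 65.0, SFRP1 32.7 and WNT5A 31.2. FZD1 averaged 9.50, SFRP5 4.03, AXIN2 1.68, LEF1 1.07 and RSPO1 0.0746. All but 3 pairs of neighbours in this order had ranges that overlapped, among them SFRP1 (8.24 to 99.3) and WNT5A (17.0 to 59.6). CTNNB1 (255 to 315) stood above DKK1 (50.1 to 85.9) in every library, FZD1 (7.06 to 17.9) above SFRP5 (0.393 to 6.46), and LEF1 (0.219 to 1.72) above RSPO1 (0.0194 to 0.162). Several genes changed rank between libraries, SFRP1 and AXIN2 among them. SFRP1 was at 99.3 units with FSK, above DKK1 with 85.9, while in control cells it was at 10.5 and DKK1 at 57.3. AXIN2 (1.42) lay below LEF1 (1.72) with FSH and above SFRP5 with FSK (1.87 against 1.79) and with PMA (1.85 against 0.393).

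**Figure D1:**
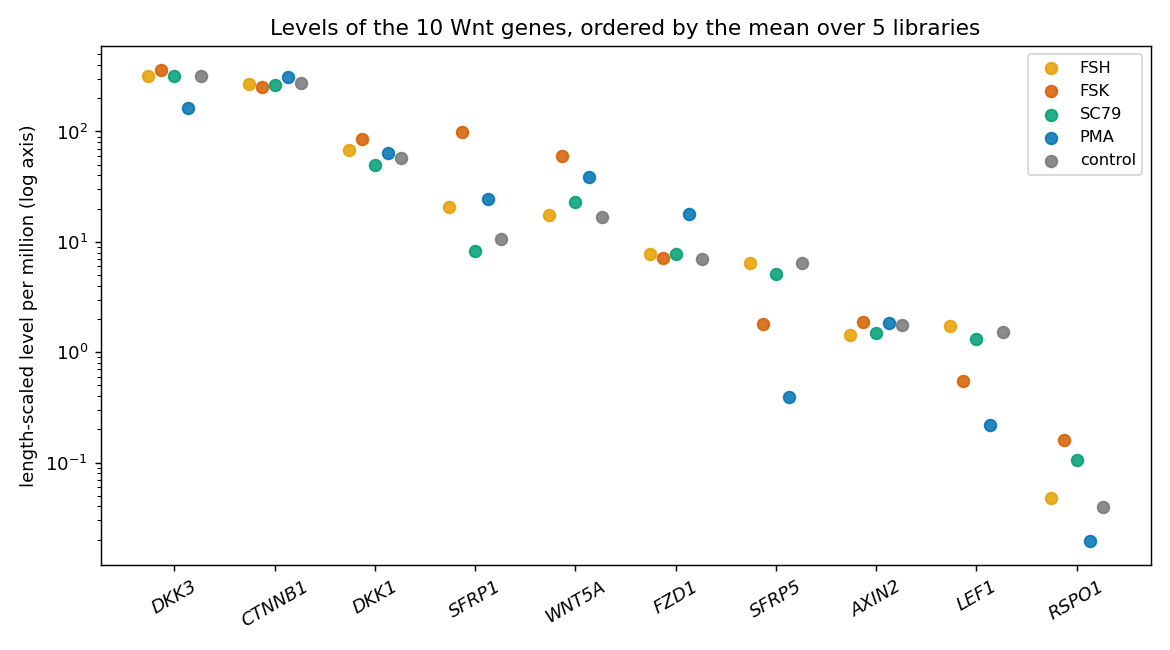
Length-scaled level in units per 1000000 (log axis) of each of the 10 genes in the FSH, FSK, SC79, PMA and control libraries, 1 point per library, with genes ordered by their mean over the libraries. DKK3 and CTNNB1 lie highest and RSPO1 lowest, and the points of SFRP1, SFRP5 and LEF1 are spread widest among the genes above RSPO1.

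WNT5A, a ligand that acts largely through routes other than beta-catenin and can use the ROR receptors, was at its highest with FSK. It had 1774 scaled counts with FSH, 6475 with FSK, 2278 with SC79, 3958 with PMA and 1812 in control cells. The FSK and PMA libraries stood above the rest, and FSH lay beside control. The ratio to control was 3.58-fold with FSK (95% interval 3.40 to 3.76) and 2.19-fold with PMA (2.07 to 2.31). It was 1.26-fold with SC79 (1.18 to 1.34) and 0.979-fold with FSH (0.918 to 1.05).

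WNT5A lies on the minus strand of chromosome 3 at 55465715 to 55490539 (GRCh38, GENCODE 29). Its transcript ENST00000264634 held 88.1 to 92.5% of the gene's counts in every library. A second coding transcript, ENST00000497027, starts within the gene and was singled out after its values were seen. It had 141 scaled counts with FSH, 378 with FSK, 215 with SC79, 223 with PMA and 108 in control cells. Both transcripts were thus highest with FSK, with log2 ratios to control of 1.84 for ENST00000264634 and 1.79 for ENST00000497027. With SC79 the log2 ratios were 0.28 and 0.99 for the same transcripts. ENST00000482079, another coding transcript that starts within the gene, was at -0.06 with SC79 (24.2 scaled counts against 25.2 in control cells). The split of WNT5A counts between transcripts is an estimate whose error was not measured. The 250 bases before the RefSeq start that lies 5 bases from the first base of ENST00000497027 are shown because they precede the inner start of the gene, 6244 bases into its main transcript's span, and hold none of the motifs searched below.
WNT5A, inner start, chr3:55481399-55481648, minus strand, GRCh38.p14: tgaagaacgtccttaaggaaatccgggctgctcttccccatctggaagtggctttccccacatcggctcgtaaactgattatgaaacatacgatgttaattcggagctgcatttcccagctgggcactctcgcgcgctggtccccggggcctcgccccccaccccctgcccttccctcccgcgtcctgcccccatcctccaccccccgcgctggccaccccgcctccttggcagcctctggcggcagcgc

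RSPO1, a secreted protein that strengthens Wnt signals through the LGR receptors, was close to the limit of detection. It had 3.02 scaled counts with FSH, 8.33 with FSK, 5.28 with SC79, 0.986 with PMA and 1.85 in control cells. The ratio of FSK to control, 4.52-fold, had an interval of 0.902 to 43.7, so no difference between these libraries was detectable at this depth. PMA over FSK came to 0.118-fold (0.00267 to 0.883), which leaves out 1 but rests on 0.986 against 8.33 scaled counts. RSPO1 lies on chromosome 1 at 37611350 to 37634923, minus strand.

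SFRP1 showed the widest upward range of the antagonists and was the member furthest above control with FSK. It had 2168 scaled counts with FSH, 10308 with FSK, 858 with SC79, 2419 with PMA and 1097 in control cells. FSK stood apart from every other library, FSH and PMA lay near each other, and SC79 was the only library below control. The ratio to control was 9.40-fold with FSK (8.85 to 9.99), 2.21-fold with PMA (2.06 to 2.37) and 1.98-fold with FSH (1.84 to 2.12). With SC79 it was 0.782-fold (0.715 to 0.856). The FSH value lies just outside the 2-fold rule used below. SFRP1 lies on chromosome 8 at 41261958 to 41309497, minus strand, and 1 transcript, ENST00000220772, held at least 99.3% of its counts in each library.

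SFRP5, a close relative of SFRP1 in the same family, went the other way with FSK and PMA. It had 274 scaled counts with FSH, 76.1 with FSK, 216 with SC79, 15.8 with PMA and 275 in control cells. FSH lay beside control, and PMA and FSK lay far below. The ratio to control was 0.0574-fold with PMA (0.0324 to 0.0948) and 0.277-fold with FSK (0.211 to 0.359). With SC79 it was 0.784-fold (0.653 to 0.94), and with FSH 0.998-fold (0.844 to 1.18). Only 1 transcript of SFRP5 is in the table, at chromosome 10, 97766751 to 97771952 on the minus strand, and all of its 31-base stretches were its own.

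The window before the SFRP5 start is shown because SFRP5 was the member furthest below control. Of the 8 windows found for 7 of the genes it had the highest GC content, 76.8%, against a median of 58.0% over 35116 RefSeq promoter windows of the same length, and 21 CpG pairs against a median of 11. The RefSeq start lies 47 bases before the first base of the SFRP5 transcript, and the window holds none of the motifs searched.
SFRP5, chr10:97772000-97772249, minus strand, GRCh38.p14: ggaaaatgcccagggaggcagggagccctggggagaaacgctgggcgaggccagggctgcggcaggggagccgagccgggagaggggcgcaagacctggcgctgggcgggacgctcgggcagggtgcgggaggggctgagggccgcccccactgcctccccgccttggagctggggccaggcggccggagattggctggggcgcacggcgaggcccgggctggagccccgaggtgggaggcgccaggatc

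DKK1, which binds the LRP co-receptors, varied little. It had 2487 scaled counts with FSH, 3197 with FSK, 1927 with SC79, 2287 with PMA and 2180 in control cells. FSK was highest and SC79 lowest, and the widest gap between libraries was 1.66-fold. The ratio of FSK to control was 1.47-fold (1.39 to 1.55), which is short of the 2-fold rule. An antisense gene, PRKG1-AS1, shares up to 212 bases of exon with DKK1, is not among the table's gene names and left 91.6% of the 31-base stretches of DKK1 to it alone. The strand of counting is not stated, so reads of the antisense partner cannot be told apart. DKK1 lies on chromosome 10 at 52314296 to 52318042, plus strand.

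The window before the DKK1 start is shown because it alone of the 8 windows held a match to a motif searched. Motifs were CTTTGA, the core letters bound by TCF/LEF factors, TGACGTCA, the cAMP response element, and TGANTCA, the AP-1 site, all 3 on both strands, and TATAAA on the sense strand only. CTTTGA occurred in 11.2% of all windows, TGACGTCA in 1.65%, TGANTCA in 6.57% and TATAAA in 6.80%. In DKK1 the capitals mark 2 matches to the TCF/LEF core, whose first letters lie 149 and 95 bases before the start, and 1 TATAAA that begins 30 bases before it. A match is a description of letters only. SFRP1, DKK3 and AXIN2 were not among the windows used here. The sequences are from RefSeq.
DKK1, chr10:52314031-52314280, plus strand, GRCh38.p14: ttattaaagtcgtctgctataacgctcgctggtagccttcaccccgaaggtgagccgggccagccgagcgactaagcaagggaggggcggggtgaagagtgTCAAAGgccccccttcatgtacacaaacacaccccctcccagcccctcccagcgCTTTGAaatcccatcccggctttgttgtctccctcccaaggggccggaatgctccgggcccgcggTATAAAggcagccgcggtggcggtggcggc

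DKK3, a divergent member of the Dickkopf family that does not act like DKK1 on LRP, had the highest length-scaled level of the 10 in every library but PMA, where it was at 162 and CTNNB1 at 315. It had 18710 scaled counts with FSH, 21429 with FSK, 17813 with SC79, 8855 with PMA and 18661 in control cells. PMA stood alone below the other 4. The ratio of PMA to control was 0.475-fold (0.463 to 0.487), and that of FSK to control was 1.15-fold (1.13 to 1.17). This PMA value lies just inside the 2-fold rule. With library totals in place of TMM scaling it came to a log2 ratio of -0.9989, which is outside the rule. DKK3 lies on chromosome 11 at 11963106 to 12009769, minus strand, and ENST00000326932 held 94.4 to 96.6% of its counts.

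**Figure D2:**
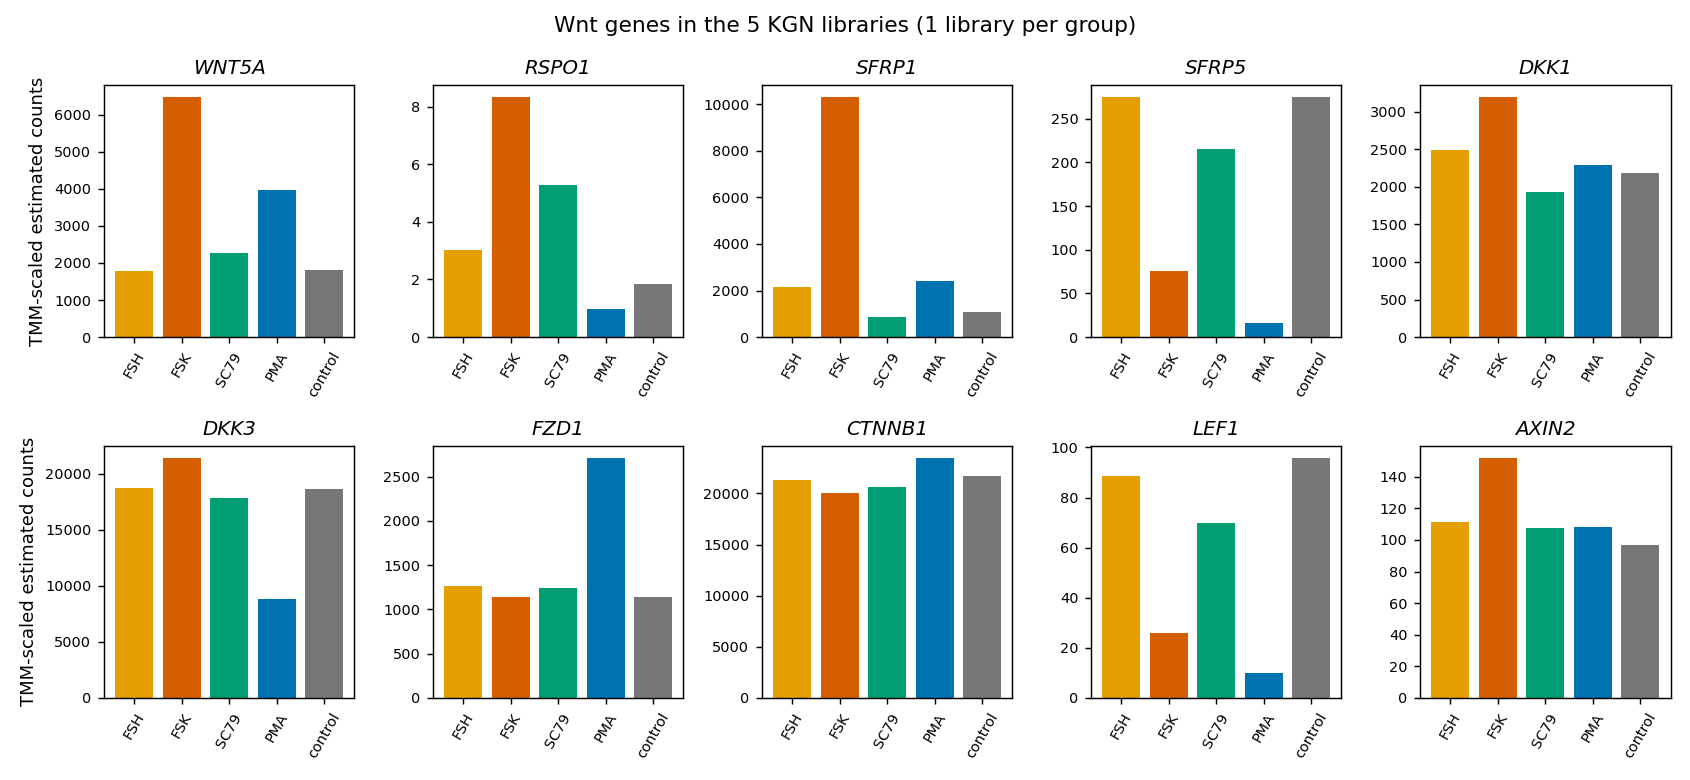
TMM-scaled counts of the 10 genes in the FSH, FSK, SC79, PMA and control libraries, 1 value per library. SFRP1 reaches 10308 with FSK against 1097 in control, SFRP5 is at 15.8 with PMA against 275 in control, and CTNNB1 stays between 20028 and 23491.

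FZD1, a Frizzled receptor, differed from control only with PMA by the 2-fold rule. It had 1262 scaled counts with FSH, 1139 with FSK, 1248 with SC79, 2716 with PMA and 1139 in control cells. PMA stood above the other 4, which lay between 1139 and 1262. The ratio of PMA to control was 2.38-fold (2.23 to 2.55), and that of FSK to control was 1.00-fold (0.921 to 1.09). FZD1 has 1 transcript, on chromosome 7 at 91264364 to 91271326 on the plus strand, and 98.4% of its 31-base stretches are shared with no other gene, the rest being shared with FZD2, FZD7 and FZD10.

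CTNNB1, beta-catenin itself, varied least of the 10. It had 21315 scaled counts with FSH, 20028 with FSK, 20651 with SC79, 23491 with PMA and 21702 in control cells. The highest and lowest libraries differed 1.17-fold. Its intervals to control excluded 1 for FSK, SC79 and PMA, since counts are large, but with 1 library per group these do not show a difference between conditions. A set of 4 transcripts each held at least 10% of its counts in some library. ENST00000396183 held 39.3% with FSH, 33.9% with FSK, 39.2% with SC79, 32.3% with PMA and 39.4% in control cells, while ENST00000349496 held 31.6% with FSH, 37.8% with FSK, 29.9% with SC79, 36.1% with PMA and 32.4% in control cells. CTNNB1 lies on chromosome 3 at 41194741 to 41260096, plus strand. mRNA levels say nothing of beta-catenin protein, which the pathway controls by its destruction.

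LEF1, a DNA-binding partner of beta-catenin, was low in every library. It had 88.4 scaled counts with FSH, 26.0 with FSK, 69.7 with SC79, 9.86 with PMA and 95.9 in control cells. PMA and FSK lay below the other 3. The ratio to control was 0.103-fold with PMA (0.0479 to 0.197) and 0.272-fold with FSK (0.168 to 0.423). LEF1 had under 100 scaled counts in every library and so is not counted under the 2-fold rule. It lies on chromosome 4 at 108047545 to 108168956, minus strand, where an antisense gene, LEF1-AS1, shares up to 279 bases of exon.

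AXIN2, the feedback scaffold that is a target of beta-catenin in many tissues, did not pass the 2-fold rule with any treatment. It had 112 scaled counts with FSH, 152 with FSK, 108 with SC79, 109 with PMA and 96.9 in control cells. The ratio of FSK to control was 1.57-fold (1.21 to 2.04), which a 1.5-fold rule would count as higher, and the intervals of the other 3 treatments held 1. On the length scale the order was not the same, with 1.42 units with FSH, 1.87 with FSK, 1.48 with SC79, 1.85 with PMA and 1.78 in control cells. The assignment of counts to transcripts of unequal length also differed. ENST00000307078 held 73.8% with FSH, 46.5% with FSK, 88.3% with SC79, 20.9% with PMA and 82.4% in control cells, and ENST00000618960 held 19.0% with FSH, 35.3% with FSK, 63.3% with PMA and 0 with SC79 and in control cells. These rest on 111 estimated counts or fewer outside FSK, and the transcripts share their first base, so the split is uncertain. AXIN2 lies on chromosome 17 at 65528563 to 65561647, minus strand, and only 75.3% of its 31-base stretches are its own. AC004805.1, a gene on the same strand that shares up to 1316 bases of exon, had 2.96 scaled counts with PMA and 0 elsewhere.

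**Figure D3:**
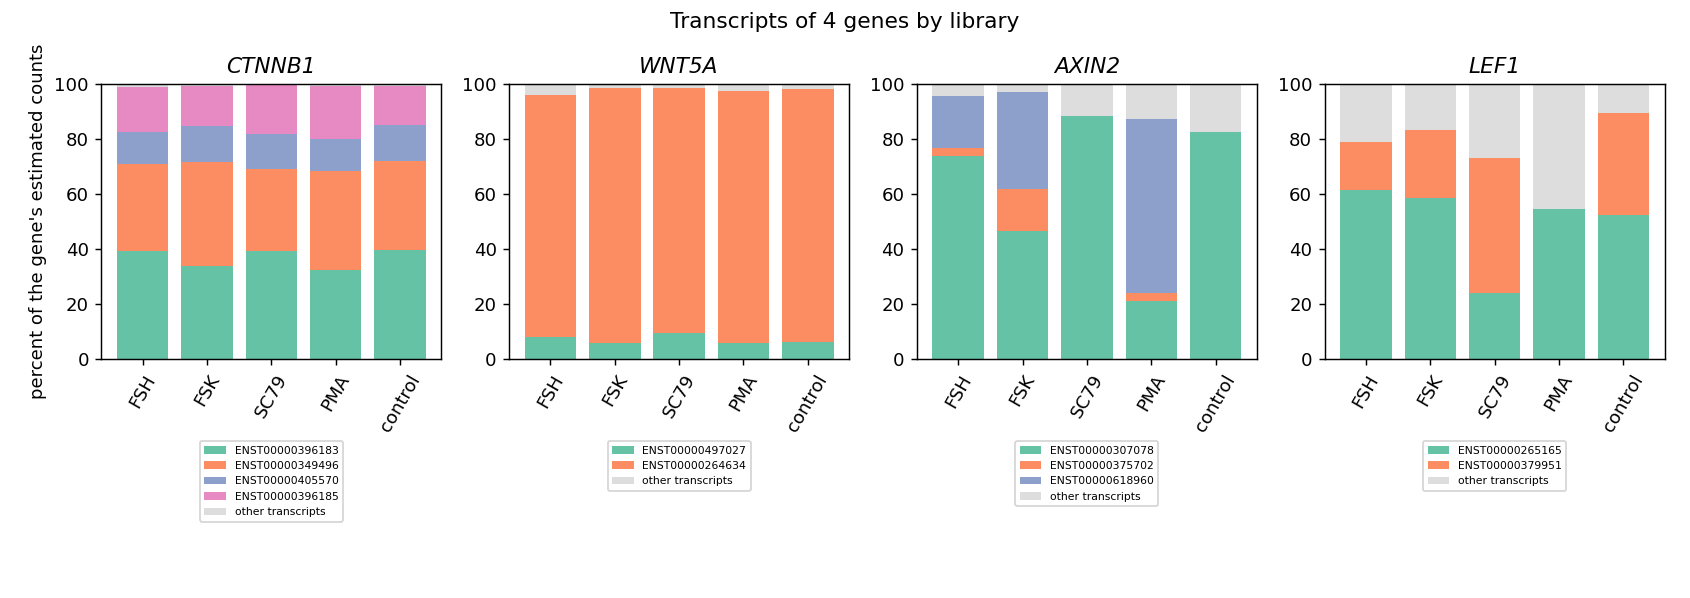
Share of each gene's estimated counts, in percent, held by named transcripts of CTNNB1, WNT5A, AXIN2 and LEF1 in the FSH, FSK, SC79, PMA and control libraries, with all other transcripts in grey. ENST00000264634 leads WNT5A in all 5, the leading CTNNB1 transcript is ENST00000349496 with FSK and PMA and ENST00000396183 in the others, and ENST00000618960 of AXIN2 holds 63.3% with PMA and 0 in control. LEF1 rests on 10 counts with PMA.

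The comparisons with control share 1 control library, so their values are given side by side and not set against each other. A gene was counted as higher or lower when it was 2-fold or more away from the other library and the larger of both values reached 100 scaled counts. LEF1 and RSPO1 never reached 100. The members and the rule were chosen with earlier results of these data known, so shares of members beside the background are a description only. With FSK, 2 members were higher (WNT5A and SFRP1) and 1 was lower (SFRP5), of 8 with 100 scaled counts, where 4.04% of 12611 genes tested were higher and 5.51% lower, 9.55% in all. With PMA, 3 were higher (WNT5A, SFRP1 and FZD1) and 2 lower (SFRP5 and DKK3) of 8, where 3.5% of 12649 genes were higher and 3.68% lower, 7.18% in all. The authors' normalized values are not at a common depth, and their median over all genes tested lay at -0.16 with FSK and -0.25 with PMA. On them FSK gave 2 higher and 2 lower members, LEF1 being added, and PMA gave 1 higher and 3 lower. There the log2 ratios of WNT5A (0.90) and SFRP1 (0.92) with PMA stood under the rule, though they were above that median by more than 1. With library totals, PMA gave 3 higher and 1 lower. With FSH, none of 8 was counted, where 0.305% of 12478 genes were higher and 0.112% lower, 0.417% in all. With SC79, none of 8 was counted, where 0.208% of 12484 genes were higher and 0.0401% lower, 0.248% in all.

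The members' median log2 ratio to control was 0.08 with FSH, 0.38 with FSK, -0.07 with SC79 and 0.14 with PMA. Over all genes tested it was -0.01 with FSH, 0.00 with FSK, -0.02 with SC79 and -0.02 with PMA. Both signs stand among the members with FSK and PMA, so the median hides SFRP1 at 3.23 and SFRP5 at -1.84 with FSK, and FZD1 at 1.25 and SFRP5 at -4.04 with PMA. These log2 ratios add a pseudocount of 1 scaled count. For SFRP1 with FSH, 0.98 was the value nearest to a log2 ratio of 1 from below.

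**Figure D4:**
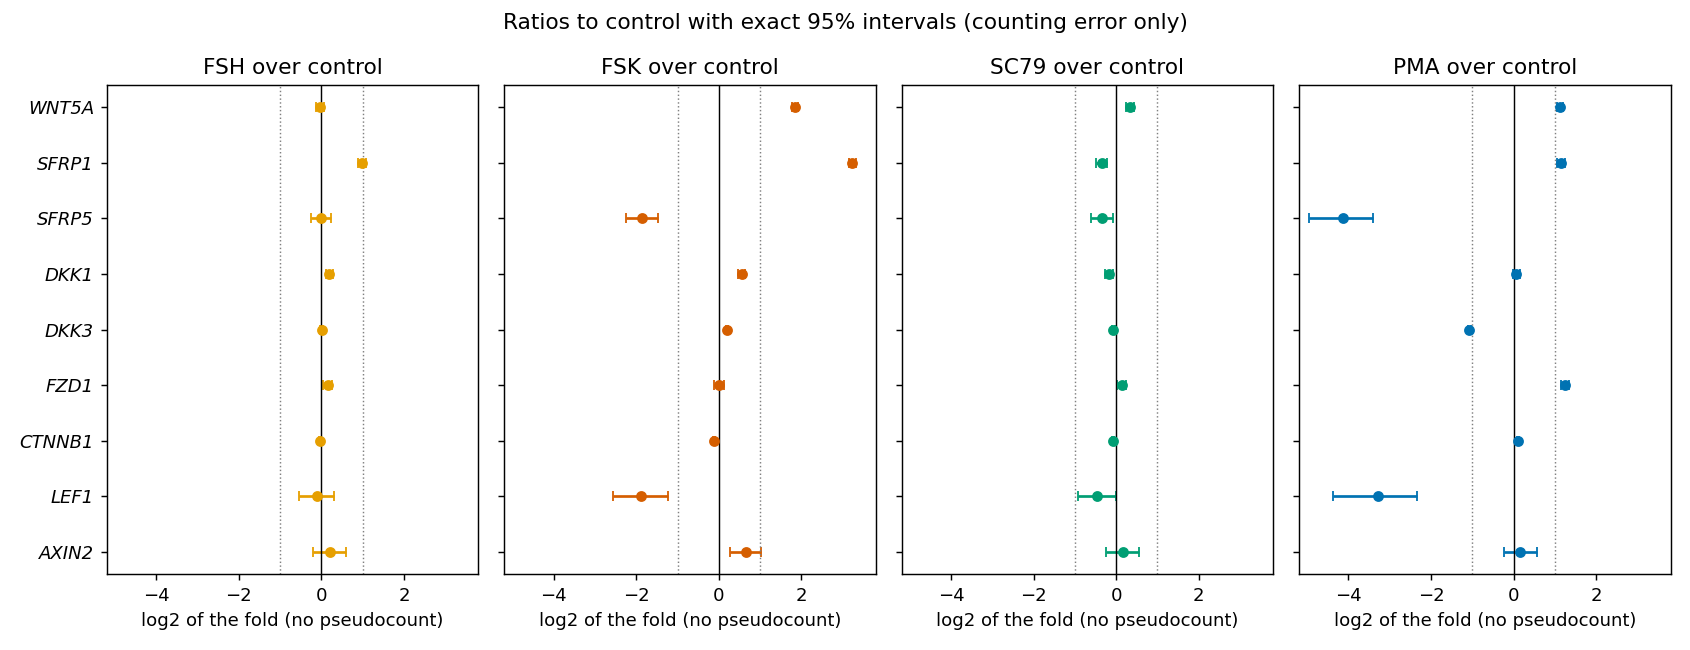
Log2 of the fold of scaled counts to control, without a pseudocount, for FSH, FSK, SC79 and PMA; bars are exact 95% intervals for counting error, and dotted lines mark 2-fold. RSPO1, with under 10 counts per library, is left out. SFRP1, WNT5A and SFRP5 lie beyond the lines with FSK and with PMA, SFRP1 and WNT5A higher and SFRP5 lower, and so does LEF1, lower with both, which had under 100 scaled counts. FZD1 and DKK3 lie beyond them with PMA.

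FSK and FSH both act on granulosa cells through cAMP, FSH by way of its receptor, whose gene FSHR had 112 scaled counts with FSH and 93.2 in control cells. Set directly against FSH, SFRP1 (4.76-fold, 4.54 to 4.98) and WNT5A (3.65-fold, 3.46 to 3.85) were higher with FSK and SFRP5 was lower (0.277-fold, 0.211 to 0.360). This made 2 members higher and 1 lower of 8, where 3.23% of 12616 genes were higher and 4.59% lower, 7.82% in all. The doses are of different agents and are not matched.

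PMA was also set directly against FSK. FZD1 was higher with PMA (2.39-fold, 2.22 to 2.56), while SFRP1 was lower (0.235-fold, 0.224 to 0.245) and so was DKK3 (0.413-fold, 0.403 to 0.424). That is 1 member higher and 2 lower of 7, where 5.78% of 12693 genes were higher and 5.11% lower, 10.9% in all. WNT5A came to 0.611-fold (0.587 to 0.636), short of the rule. SFRP5 had 15.8 scaled counts with PMA and 76.1 with FSK, a ratio of 0.207-fold (0.113 to 0.360), but both were under 100.

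Around the 10 genes, 98 other genes of the pathway were in the table, chosen by role with earlier results of these data known. With FSK, 2 of 67 with at least 100 scaled counts were higher (2.99%) and 5 lower (7.46%), near the 4.04% and 5.51% of all genes tested. Their median log2 ratio was -0.09, against 0.00 over all genes tested. Among ligands and secretion genes, PORCN, the enzyme that attaches the lipid to Wnts, had 3209 scaled counts with FSK and 1070 in control cells (log2 ratio 1.58). WNT5B, the closest relative of WNT5A, had 1273 with FSK and 2808 in control cells (-1.14), and so lay on the other side of control from WNT5A. WNT7B had 27.1 with FSK and 102 in control cells (-1.88). The receptor ROR1, which can bind WNT5A, had 1056 with FSK and 3665 in control cells (-1.79). TCF7, a relative of LEF1, had 106 with FSK and 332 in control cells (-1.63). CCND1, which encodes cyclin D1, had 12192 with FSK and 29098 in control cells (-1.25). NKD2, a feedback inhibitor that binds Dishevelled, had 362 with FSK and 65.5 in control cells (2.45). SFRP4, another secreted antagonist of the SFRP family, had 6630 with FSK and 12838 in control cells, a log2 ratio of -0.95 that is just short of the rule.

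With PMA, 2 of 67 other pathway genes were higher (2.99%) and 7 lower (10.4%), where 3.5% and 3.68% of all genes tested were. Their median log2 ratio was -0.15, against -0.02 over all genes tested. WNT7B had 1142 scaled counts with PMA and 102 in control cells (3.47), and WNT9A had 370 with PMA and 173 in control cells (1.10). LGR5, a receptor that binds R-spondins, had 147 scaled counts with PMA and 589 in control cells. Its relative LGR6 had a log2 ratio of -1.54 and the R-spondin gene RSPO2 one of -1.04. ROR1 was lower with PMA as well (-1.49), as were WNT2B (-1.05), the co-repressor gene TLE4 (-1.11) and TNFRSF19 (-1.44). WNT5B had 5491 with PMA and 2808 in control cells, a log2 ratio of 0.97 that is just short of the rule, on the same side as WNT5A. With FSH and with SC79, 0 of 66 such genes were counted in either direction, where 0.417% of all genes were with FSH and 0.248% with SC79, so a list of this size says little.

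By role, the 15 cytoplasmic genes beside CTNNB1 held 0 counted genes in both FSK and PMA, and so did the 10 planar polarity genes, where 9.55% of all genes were counted with FSK and 7.18% with PMA. In lists this short, 0 is near that background. Of the cytoplasmic genes, the ends with FSK were CTNNBIP1, an inhibitor of beta-catenin, at -0.63 and CSNK1D, a casein kinase, at 0.34. With PMA they were CTNNBIP1 at -0.52 and DVL1, a Dishevelled gene, at 0.46. Among the 15 receptors beside FZD1 with 100 scaled counts, 1 was lower with FSK (6.67%, against 5.51% of all genes) and 3 were lower with PMA (3 of 15, against 3.68% of all genes), while FZD1 was the one receptor gene counted as higher with PMA.

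**Figure D5:**
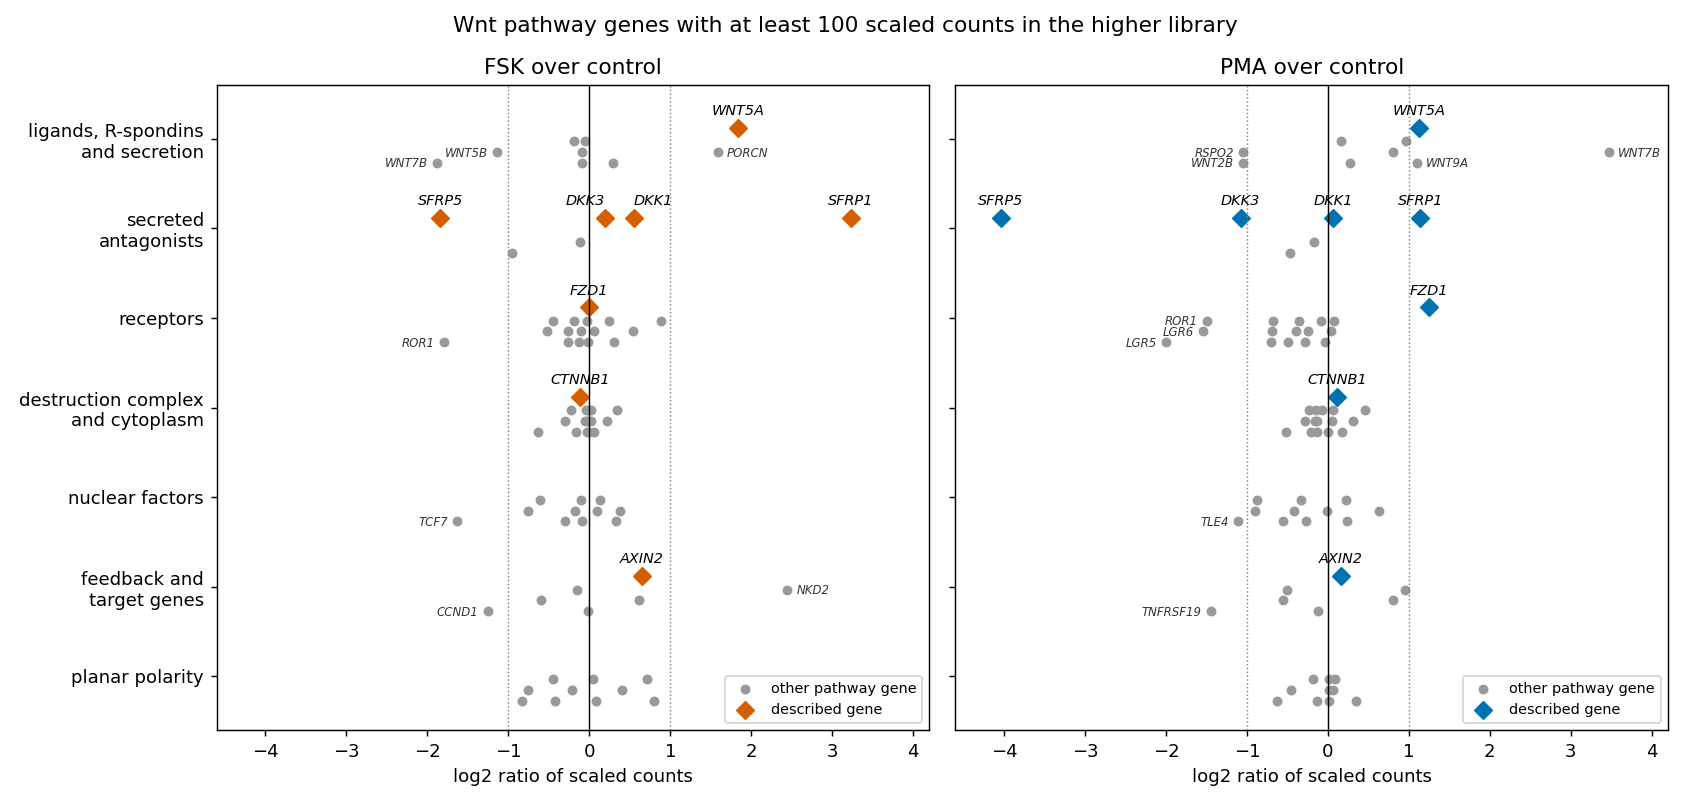
Log2 ratio of scaled counts to control with FSK (left) and with PMA (right) for Wnt pathway genes whose larger value reached 100 scaled counts, by role; diamonds are the genes described here, grey points are other genes, with those past 2-fold (dotted lines) named. SFRP1 lies at 3.23 with FSK, and SFRP5 at -4.04 and WNT7B at 3.47 with PMA are the ends of the right panel.

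Genes of like pattern were looked for among 12444 genes, by the root mean square difference over the 4 log2 ratios to control. For WNT5A the closest were SYN1 (0.10), TBX2 (0.11) and IRS1 (0.16). For SFRP1 they were PDE4B (0.23), TM4SF1 (0.26) and PDE4D (0.33). DKK3 had SLC44A3-AS1, SUSD5 and P3H3, each at 0.05, and FZD1 had RARB (0.08), ITGA2 (0.09) and NUMB (0.10). SFRP5 had no neighbour so close, with ALDH1A3 at 0.58, ZNF488 at 0.80 and ZNF423 at 0.82. Likeness over 4 ratios that share a control library is a description only.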

How the data were processed

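RNA was sequenced from 5 pooled KGN libraries, 1 per group. The authors deposited estimated counts per transcript, with a normalized signal that equals those counts multiplied by 1 constant per library, per the file headers and values. A table deposited by the authors gives each transcript's log2 fold change against control with p-values, which were not used. Trimmomatic, kallisto and edgeR, with no version, are named per the submitters' processing notes. The build and index they used are not given in the sources. Gene coordinates are from GENCODE 29 on GRCh38, and promoter windows from RefSeq on GRCh38.p14.

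For each gene name, its transcripts' estimated counts were added up and rounded to whole numbers. The 303 transcripts with no gene name, 0.0535 to 0.068% of counts, were left out. All sample columns were matched, with 0 left unmatched. Scaling used TMM factors (edgeR 4.0.16, R 4.3.3) from genes summing to at least 50 counts. Log2 ratios add a pseudocount of 1, and a gene was counted when past 2-fold with its larger value at 100 scaled counts or more. With 1 library per group no p-value was computed. Intervals are exact Clopper-Pearson 95% intervals from the rounded counts. Without molecular identifiers reads can be copies of 1 molecule, so these cover counting error only. The ratio steps were run on simulated counts that held counting error only. That checks the code and says nothing of spread between cultures or of copied reads.

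The members, the lists and the rules were chosen with earlier results of these data known. Named genes were all members, the 2 highest and 2 lowest of each other list with FSK and PMA (of which the text gives some) and any past the rule, and 3 genes of like pattern per member past the rule. Transcripts were named when they held at least 10% of a member's counts in a library where the member had at least 100 estimated counts. Alternatives were other scalings, pseudocounts, minima and folds.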

Additional observations from a re-analysis of the deposited data

How the results depend on the processing

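The counts of members past the rule were recomputed under other scalings, pseudocounts of 0.5 and 5, a minimum of 20 scaled counts, a 1.5-fold rule and protein-coding transcripts only. Of these counts, 52 were within 1.5 times the reported one and 2 were not. All SC79 counts and most FSH counts were 0 in both. Only numbers of members were compared, so a like number can hold other genes. At 1.5-fold, FSH over control gave 1 member (SFRP1) where the 2-fold rule gave 0, AXIN2 was added as higher in FSK over control and WNT5A as lower in PMA over FSK. With a minimum of 20, PMA over FSK gave 5 members where the reported count was 3. Of 426 member ratios under the alternatives, 389 stayed within their counting interval and 37 did not. The sign changed in 12, of which 7 were on the authors' normalized values. Reported log2 ratios of these 12 were at most 0.16 in size, and 0 ratios past the rule changed sign. The authors' normalized values use a constant of 1.021 for control, the library with the most counts, and 0.9344 for PMA, so depth was not evened out. On these values the median log2 ratio of all genes tested lay at -0.16 with FSH, -0.16 with FSK, -0.28 with SC79 and -0.25 with PMA. With them, LEF1 was counted as lower with FSK and PMA, WNT5A (0.90) and SFRP1 (0.92) with PMA were not counted, and CTNNB1 (-0.11), DKK1 (-0.15) and AXIN2 (-0.06) with PMA lay below 0. With library totals, DKK3 with PMA (-0.9989) was not counted. A minimum of 20 counts LEF1 as lower with FSK and with PMA. No paired analysis was possible because each group has 1 library. For the same reason no replicate could be left out. Depth limits RSPO1, LEF1 and the transcripts of AXIN2.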

Other observations

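The authors' deposited table also compares LH, the luteinizing hormone, with control. No LH library was analysed here, so these are the authors' values, with no error. In the authors' deposited table the main transcript of SFRP5 had a log2 fold change of -3.67 with LH, that of SFRP1 1.30 and that of DKK1 1.22. In the authors' deposited table WNT5A (ENST00000264634) was at -0.58, FZD1 at 0.75 and DKK3 at 0.43 with LH. For AXIN2 the authors' deposited table gives -9.37 for ENST00000307078 and 9.01 for ENST00000618960 with LH. ENST00000618960 had 0 counts in the control library, so 9.01 is not a measured fold. ENST00000307078 had 86.5 estimated counts there. Its LH count was not seen, so -9.37 cannot be read as a measured fold either. The split of AXIN2 counts between these transcripts is uncertain.

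Some ligands and agonists stayed under 100 scaled counts and outside the 2-fold rule, and were singled out after their values were seen. RSPO3, an R-spondin, had 1.01 scaled counts with FSH, 39.6 with FSK, 2.11 with SC79, 23.7 with PMA and 1.85 in control cells. WNT2 had 7.04 scaled counts with FSH, 39.6 with FSK, 6.34 with SC79, 35.5 with PMA and 10.2 in control cells.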
